A study of Mus musculus with 16 samples.

Results

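Transcript levels of 9 brush border peptidases were described in the epithelium of the mouse jejunum and ileum before and after weaning. The genes were chosen by their role as surface peptidases of the absorptive cell: the aminopeptidases Anpep, Enpep and Naaladl1, the dipeptidyl peptidases Dpp4 and Ace, the metalloendopeptidases Mep1a, Mep1b and Mme, and enteropeptidase, Tmprss15. All 9 were among the 24421 genes counted, 8 passed the filter on low counts, and Tmprss15 did not. The 16 libraries came from wild-type C57BL6/J mice at postnatal day 6 (P6, suckling) and postnatal day 36 (P36, weaned), with 4 mice at each age, 2 male and 2 female. Each mouse gave 1 jejunal and 1 ileal library, so there were 4 libraries in each of the groups P6 jejunum, P6 ileum, P36 jejunum and P36 ileum. Epithelium was released from an opened segment of gut with EDTA, which frees the whole epithelial sheet and not enterocytes alone, and polyadenylated RNA was sequenced with a stranded kit. The comparisons ask how the surface machinery of protein digestion differs between the regions, and how it changes across weaning.

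Enterocytes finish protein digestion at their apical surface, where peptidases anchored in the microvillus membrane cut the peptides left by pancreatic proteases into amino acids, dipeptides and tripeptides for uptake. Aminopeptidases take residues from the amino end, dipeptidyl peptidases remove dipeptides, and meprins and neprilysin cut inside the chain, while enteropeptidase starts the luminal cascade by cleaving trypsinogen. In the suckling rodent the ileal enterocyte also takes up milk protein whole and degrades it in lysosomes, so that surface digestion is only one of its routes.

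The sequences just upstream of 4 members are shown because these genes moved in different directions with age and region. RefSeq held windows for 7 of the 9 members. The bases shown are the 250 before the RefSeq start site (GRCm38.p6), and capitals mark matches to the motifs searched on both strands: AGATAA, bound by the GATA factors, TTTATNG, bound by CDX2, CAAAGTC, a core of the HNF4 site, and TATAAA, the TATA box. The RefSeq start lay at the start of the counted gene for Enpep, Dpp4 and Mep1a and 3 bases inside it for Ace.
Enpep, chr3:129332750-129332999, minus strand: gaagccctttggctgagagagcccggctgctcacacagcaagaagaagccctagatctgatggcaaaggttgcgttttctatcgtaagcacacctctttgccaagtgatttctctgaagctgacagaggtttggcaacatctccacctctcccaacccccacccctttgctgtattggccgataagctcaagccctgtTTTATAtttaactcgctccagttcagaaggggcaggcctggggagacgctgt
Dpp4, chr2:62412232-62412481, minus strand: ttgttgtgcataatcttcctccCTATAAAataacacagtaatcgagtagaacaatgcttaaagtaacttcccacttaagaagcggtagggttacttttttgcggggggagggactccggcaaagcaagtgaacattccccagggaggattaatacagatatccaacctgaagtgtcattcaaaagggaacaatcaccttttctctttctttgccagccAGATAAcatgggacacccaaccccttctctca
Ace, chr11:105967698-105967947, plus strand: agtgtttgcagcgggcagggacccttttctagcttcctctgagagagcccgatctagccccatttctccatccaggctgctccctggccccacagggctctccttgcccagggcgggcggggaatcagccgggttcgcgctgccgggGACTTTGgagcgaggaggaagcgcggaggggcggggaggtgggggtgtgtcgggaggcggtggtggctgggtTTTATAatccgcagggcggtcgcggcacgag
Mep1a, chr17:43502774-43503023, minus strand: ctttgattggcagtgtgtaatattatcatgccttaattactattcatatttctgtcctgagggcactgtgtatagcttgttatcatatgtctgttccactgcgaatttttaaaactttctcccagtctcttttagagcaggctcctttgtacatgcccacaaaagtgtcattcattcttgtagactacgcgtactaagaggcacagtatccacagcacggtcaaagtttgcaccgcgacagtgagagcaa
The TATA box letters stood 47 to 52 bases upstream in Enpep and 26 to 31 bases upstream in Ace, on the opposite strand to the gene in both. Ace also held the HNF4 letters 97 to 103 bases upstream, and Dpp4 the GATA letters 27 to 32 bases upstream. A single stretch of Dpp4, 222 to 228 bases upstream, matched the CDX2 letters and the TATA box letters, which overlap there. None of these motifs was found in the Mep1a window, which says only that these letters are not in these bases. Among 32851 windows of the same length, 12.4% held the TATA box letters, 9.99% the GATA letters, 9.81% the CDX2 letters and 3.84% the HNF4 letters, so a match is a description and not evidence of binding.

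Total counts ran from 12159237 to 25947276 per library, and no 2 replicates were copies of each other. Levels are given as CPM, counts scaled to a common library size with edgeR's TMM factors, and genes are compared with each other only as CPM per kilobase of exon. Gata4, a transcription factor of the proximal small intestine, matched the region labels: it lay between 155 and 193 CPM in the 8 jejunal libraries and between 0.735 and 34.7 CPM in the 8 ileal ones. Its ileal values were highest in P6 ileum replicate 4 (34.7 CPM) and P36 ileum replicate 1 (31.6 CPM). The 6 enterocyte markers summed to 10578 to 13927 CPM in P6 jejunal libraries, 5822 to 7617 in P6 ileal ones, 14634 to 19965 in the P36 jejunum and 5190.4 to 18560.2 in the P36 ileum. Within the P36 ileum both this sum and the mean log2 CPM of 9 microvillus structure genes were highest in replicate 1 (10.18) and lowest in replicate 3 (8.54). In the P6 ileum the microvillus mean was 8.37 in replicate 4 against 9.30 to 9.39 in the others, and replicate 2 carried markers of fibroblasts (245 CPM summed, 20.2 to 42.2 in the others) and of smooth muscle and pericytes (175 CPM, 3.73 to 4.18 in the others). Summed goblet cell markers were 1642 to 3942 CPM at P6 and 10712 to 22036 at P36, Paneth cell markers 29.0 to 814 at P6 and 4418 to 15143 at P36, and crypt and cycling markers 332 to 734 at P6 and 854 to 1710.4 at P36. The titles of P6 replicates 1 and 3 share an identifier and those of replicates 2 and 4 another, and the labels do not say what it marks. Paneth sums at P6 were 473 to 814 CPM under the first and 29.0 to 87.6 under the other. Peptidase levels of the 2 identifiers did not overlap for 3 of 8 members in the P6 jejunum (53.9% of all tested genes) and 3 of 8 in the P6 ileum (37.9%). The mean regional difference at P6 had the same sign under both for 7 of 8, the exception being Mep1b (-0.03 and 0.11), and with the identifier as a covariate the counts of members that passed were the same in all 5 comparisons. These identifiers occur at P6 only. Enteroendocrine markers summed to 95.8 to 225 CPM over all libraries. T cell, B and plasma cell, tuft and endothelial markers each stayed below 75 CPM in every library. Globin genes had no count. The villus tip list summed to 64874 to 82681 CPM in the P6 jejunum, led by Apoa4, and to 170 to 1093 in the P36 ileum, led by Klf4. The macrophage and dendritic list, led at P6 by Csf1r, summed to 167 to 511 CPM at P6 and 4.81 to 23.6 at P36. The neuron and glia list, led by Ret, summed to 110 to 221 CPM at P6 and 3.44 to 10.1 at P36. Pancreatic acinar markers, led by Ctrb1, reached 89.2 to 278 CPM in the P6 jejunum and at most 2.52 elsewhere, with Cpa1 and Amy2a5 at 0 counts in every group. The part of these differences in the peptidase values was not tested, and in bulk RNA fewer cells of a type and less RNA per cell cannot be told apart.

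The summed level of the 9 genes was 2600 ± 135 CPM per kilobase (SD, n = 4) in jejunum and 3149 ± 622 in ileum at P6. At P36 it was 5836 ± 712 in jejunum and 5192 ± 3021 in ileum. Every P36 jejunal library (5102 to 6785) lay above every P6 library (2276 to 3747), whereas the P36 ileal libraries ran from 1944 to 9207 and overlapped both ages. The make-up of that sum differed by group. In the P6 jejunum Ace came first with 32.6 ± 3.00% of the sum, above Naaladl1 (18.6 ± 4.51%) and Anpep (18.5 ± 2.19%), which were not separated in rank. Naaladl1 led in the P6 ileum with 38.6 ± 15.3%, followed by Mep1a with 25.5 ± 4.64%, and their ranges overlapped because of replicate 4. Anpep held 52.0 ± 0.58% of the sum in the P36 jejunum and was the 10th most abundant gene of all per kilobase there. The same gene held 40.6 ± 3.68% in the P36 ileum, followed by Naaladl1 with 26.9 ± 1.50%. These P36 ileal shares were far tighter than the levels, which differed 5.90-fold for Anpep between the highest and lowest library.

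**Figure D1:**
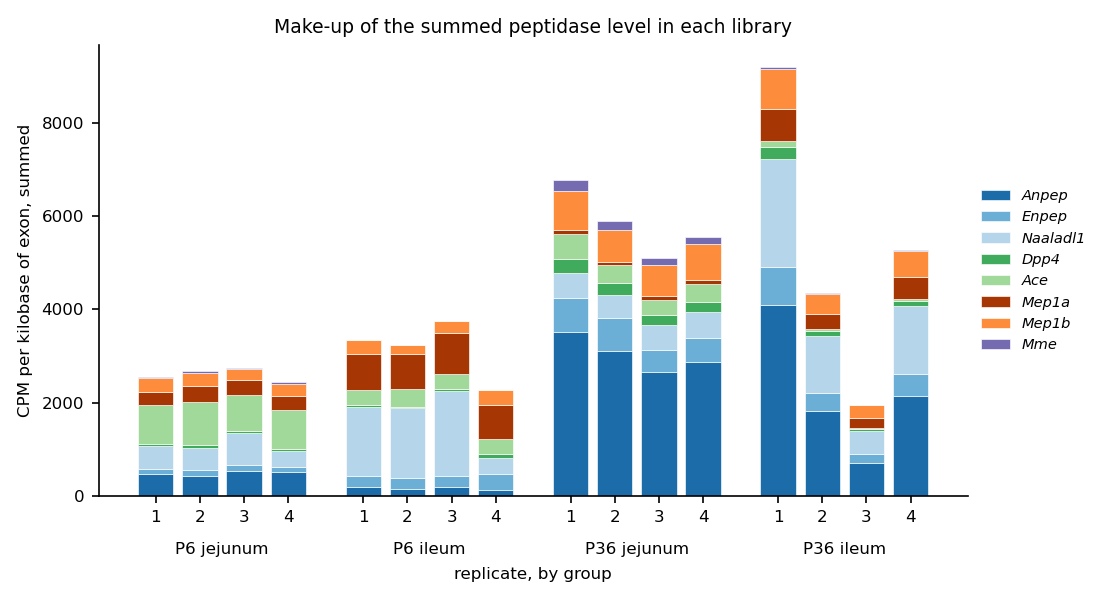
Stacked bars give CPM per kilobase of exon (linear axis from 0) of 8 peptidases in each of the 16 libraries, grouped by age and region; Tmprss15 is too low to draw. Ace takes the largest part of the P6 jejunal bars (32.6% on average) and Naaladl1 of the P6 ileal ones on average (38.6%), Anpep takes the largest part of the P36 bars, and the 4 P36 ileal bars run from 1944 to 9207.

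Down the order within each group, several neighbours overlapped in range. Mep1a (307 ± 21.4 CPM per kilobase) and Mep1b (273 ± 20.3) overlapped in the P6 jejunum, and Enpep (125 ± 14.0), Dpp4 (54.1 ± 7.44) and Mme (27.4 ± 12.5) followed without overlap. The P6 ileum had Ace (334 ± 33.9), Mep1b (269 ± 54.1) and Enpep (261 ± 45.2) within each other's range, then Anpep (164 ± 31.6), Dpp4 (54.3 ± 20.3) and Mme at 0.554 ± 0.0942. Behind Anpep (3037 ± 376) in the P36 jejunum, Mep1b (741 ± 68.5), Enpep (604 ± 124), Naaladl1 (535 ± 26.7) and Ace (407 ± 88.1) each overlapped the next, except that Ace lay above Dpp4 (250.3 ± 37.5) in all ranges. Within libraries, Mep1b exceeded Enpep and Naaladl1 exceeded Ace in 4 of 4, and Enpep exceeded Naaladl1 in 2 of 4. Mep1a was last of the tested genes there, at 76.5 ± 15.5. In the P36 ileum all neighbours from Anpep to Mme overlapped in range, since the libraries differed in every member together. Compared within libraries, each of these neighbours held its order in 4 of 4, except Enpep over Mep1a in 3 of 4.

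Between the regions at P6, 6 of the 8 tested peptidases passed the test (edgeR's quasi-likelihood test, Benjamini-Hochberg adjusted p below 0.05 over the 13429 genes tested), where 25.9% of all tested genes passed. Anpep, Ace and Mme were higher in the jejunum, as were 11.1% of all genes, and Enpep, Naaladl1 and Mep1a were higher in the ileum, as were 14.8%. A difference above 2 on the log2 scale was reached by 1 of them, Mme (6.50% of all genes). In 5 of the 8 the libraries of the 2 regions did not overlap (30.1% of all genes). At P36, 4 peptidases passed (16.1% of all genes): Ace and Mme were higher in the jejunum (8.30% of all genes) and Naaladl1 and Mep1a in the ileum (7.80%), and 3 of them exceeded the fold minimum (3.60%). Ranges were apart at P36 for 3 of 8 (26.9%). The counts leaned on single libraries: without P6 jejunum replicate 1 or 4 the P6 count was 3 (19.9% and 19.0% of all genes), and without P6 ileum replicates 2 and 4, a choice made after seeing their markers, it was also 3 (27.1%), with Anpep, Enpep and Ace no longer past the test. Without P36 ileum replicate 1 the P36 count was 7 (19.8%), since Anpep (0.97), Enpep (0.78), Dpp4 (1.53) and Mep1b (0.82) then passed as higher in the jejunum and Naaladl1 did not pass.

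With age the jejunum had 5 peptidases that rose (Anpep, Enpep, Dpp4, Mep1b and Mme, with 24.7% of all genes higher) and 1 that fell (Mep1a, with 26.9% of all genes lower). These 6 of 8 calls stand beside 51.6% of all tested genes. Of these, 5 exceeded the fold minimum, against 16.4% of all genes, and 7 of 8 had ranges apart (63.8%). The ileum had the same 5 rise (25.5% of all genes higher), while Ace and Mep1a fell (30.1% of all genes lower), 7 calls beside 55.7% of all genes. There, 3 exceeded the fold minimum (16.4%) and 4 of 8 had ranges apart (44.4%). The median log2 fold change of the 8 was 1.83 in the jejunum and 0.91 in the ileum, beside medians of -0.01 and -0.03 over all tested genes. The 2 age comparisons have no library in common, although all 16 set the spread in the fit. None of the 8 passed the test of whether the regional difference itself changed with age (the P6 log2 difference minus the P36 one), a test that 8.69% of all genes passed. The smallest edgeR adjusted p of the 8 were 0.0588 (Enpep) and 0.075 (Mep1a), and DESeq2 called these 2 (beside 12.8% of all genes). Leaving out P36 ileum replicate 1 gave 3 calls in this test (Enpep, Dpp4 and Ace; 10.4% of all genes) and leaving out replicate 3 gave 4 (Anpep, Enpep, Mep1a and Mme; 7.98%).

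**Figure D2:**
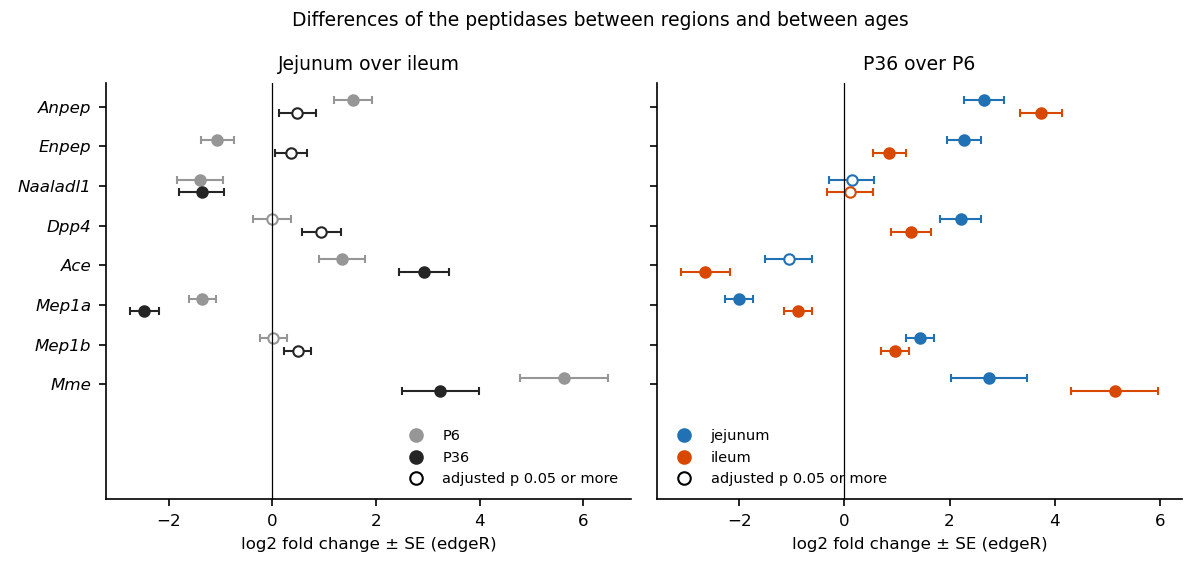
Points are log2 fold changes with SE from edgeR for 8 peptidases, jejunum over ileum at each age on the left and P36 over P6 in each region on the right; open points had an adjusted p of 0.05 or more. Anpep reaches 3.74 with age in the ileum, Mme 5.63 between the regions at P6, and Naaladl1 stays near 0 with age in both regions.

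Anpep encodes aminopeptidase N, a zinc enzyme that releases neutral residues from peptides (mm10, chr7:79821803-79842352, minus strand, 3423 bases of exon). Its level was 1583, 1427, 1841 and 1728 CPM in replicates 1 to 4 of the P6 jejunum and 634, 489, 670 and 447 in the P6 ileum. At P36 it was 12055, 10671, 9061 and 9797 CPM in the jejunum and 13997, 6213, 2371 and 7314 in the ileum. All jejunal libraries lay above all ileal ones at P6, all P36 libraries above all P6 ones, and the regions overlapped at P36. The P6 difference was 2.94-fold (log2 1.55 ± 0.37 SE, edgeR adjusted p = 0.00522), seen in 4 of 4 mice. At P36 it was 0.48 ± 0.36 (edgeR adjusted p = 0.427) and positive in 3 of 4 mice. With age Anpep rose 6.32-fold in the jejunum (log2 2.66 ± 0.38, edgeR adjusted p = 2.5e-05) and 13.3-fold in the ileum (3.74 ± 0.40, edgeR adjusted p = 1.07e-06). The larger ileal rise was not separated from the jejunal one (difference 1.08 ± 0.51, edgeR adjusted p = 0.219).

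Enpep encodes aminopeptidase A, which releases acidic residues (chr3:129269177-129332749, minus strand, 4208 bases of exon). It stood at 479, 604, 538 and 480.1 CPM in jejunum and at 1028, 989, 991 and 1381 in ileum at P6. After weaning it stood at 3058, 2910.0, 2009 and 2186 in jejunum and at 3472, 1624, 813 and 2004 in ileum. The P6 regions did not overlap and the order was opposite to that of Anpep, with the ileum higher. That difference was 2.09-fold (jejunum over ileum, log2 -1.06 ± 0.32, edgeR adjusted p = 0.0209), in the same direction in 4 of 4 mice. It was lost when P6 jejunum replicate 1 or 4 was left out, with an adjusted p of up to 0.0606. At P36 the regional difference was 0.36 ± 0.31 (edgeR adjusted p = 0.497). Enpep rose 4.84-fold in the jejunum with age (2.27 ± 0.33, edgeR adjusted p = 2.58e-05) and 1.80-fold in the ileum (0.85 ± 0.31, edgeR adjusted p = 0.0306). Of the 8 fits that left out an ileal library, 3 kept the ileal call, and P36 ileum replicate 3 lay below every P6 ileal library. The regional difference changed with age by -1.42 ± 0.44 (edgeR adjusted p = 0.0588). With each mouse as a block in the fit this change passed (-1.58, edgeR adjusted p = 0.0241).

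Naaladl1 encodes a relative of glutamate carboxypeptidase II with reported aminopeptidase activity (chr19:6105798-6115555, plus strand, 2238 bases of exon). Its CPM was 1079.8, 1033, 1502 and 745 in the P6 jejunum and 3281, 3353, 4045 and 806 in the P6 ileum. After weaning it was 1215, 1112, 1212 and 1252 in the jejunum and 5195, 2773, 1135 and 3269 in the ileum. A single ileal library at each age, P6 replicate 4 and P36 replicate 3, fell into the jejunal range, and the other ileal libraries lay above it. The gene was 2.63-fold higher in the ileum at P6 (log2 -1.40 ± 0.44, edgeR adjusted p = 0.0287) and 2.58-fold higher at P36 (-1.37 ± 0.44, edgeR adjusted p = 0.0451). These calls were fragile: 2 of 8 fits without a P6 library and 1 of 8 without a P36 library kept them. The P36 call was lost with mouse as a block of fixed effects (-1.19, edgeR adjusted p = 0.0532) and kept with the block's correlation estimated. Naaladl1 was the one tested member that passed with age in neither region, with changes of 0.14 ± 0.43 in the jejunum (edgeR adjusted p = 0.818) and 0.11 ± 0.43 in the ileum (edgeR adjusted p = 0.851).

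**Figure D3:**
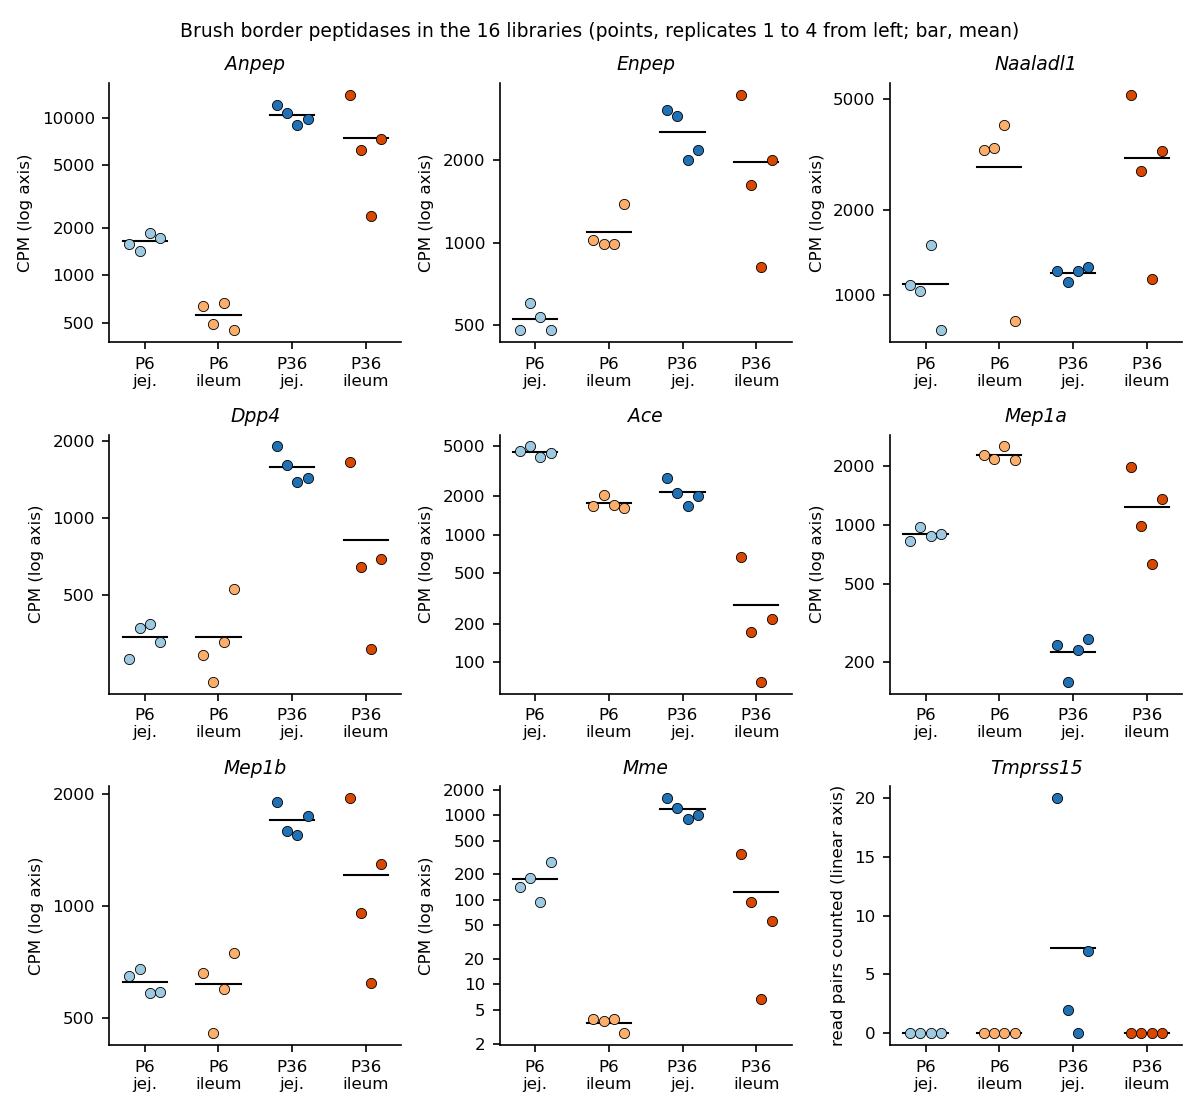
Each panel gives 1 gene in the 16 libraries, as CPM on a log axis or, for Tmprss15, as read pairs on a linear axis; points are replicates 1 to 4 from left to right and the bar is the group mean. The 4 P36 ileal points are the most widely spread in most panels, and Mme at P6 separates the regions by the largest step, 93.7 to 282 CPM against 2.65 to 3.95.

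Dpp4 encodes dipeptidyl peptidase 4, which removes dipeptides that end in proline or alanine (chr2:62330073-62412231, minus strand, 6301 bases of exon). It measured 282, 370.5, 385 and 326 CPM in jejunum and 291, 229, 325 and 524 in ileum at P6. At P36 the jejunal libraries held 1899, 1607, 1375 and 1427 CPM and the ileal ones 1646, 641, 307 and 691. The P6 regions overlapped, with a difference of -0.01 ± 0.37 (edgeR adjusted p = 0.992) and 2 of 4 mice on each side. In the jejunum Dpp4 rose 4.63-fold with age without overlap (2.21 ± 0.39, edgeR adjusted p = 0.000184). The ileal rise was 2.40-fold (1.26 ± 0.38, edgeR adjusted p = 0.0099), with P36 replicate 3 inside the P6 range, and 7 of 8 fits without an ileal library kept it. It did not pass when only the 8 ileal libraries were fitted (edgeR adjusted p = 0.0532). At P36 the jejunum was higher in 4 of 4 mice, by 0.94 ± 0.38 (edgeR adjusted p = 0.105). This passed with mouse as a block (1.19, edgeR adjusted p = 0.0276) and without P36 ileum replicate 1 (1.53, edgeR adjusted p = 0.00228).

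Ace encodes angiotensin-converting enzyme, which takes dipeptides from the carboxyl end (chr11:105967945-105989964, plus strand, 5287 bases of exon). An antisense gene, Gm11651, overlaps its exons, and counting used strand. Ace was the most abundant of the 9 per kilobase in the P6 jejunum, with 4489, 4933, 4095 and 4391 CPM. The P6 ileum had 1689, 2028, 1723 and 1625 CPM. At P36 the jejunum had 2796, 2113, 1685 and 2020.4 CPM and the ileum 671, 173, 70.2 and 218. Jejunal libraries lay above ileal ones at both ages, and P6 libraries above P36 ones in both regions. The regional difference was 2.53-fold at P6 (1.34 ± 0.45, edgeR adjusted p = 0.0387) and 7.61-fold at P36 (2.93 ± 0.48, edgeR adjusted p = 0.000511), in 4 of 4 mice at each age. None of the 8 fits that left out a P6 library kept the P6 call, although its log2 value stayed between 1.30 and 1.41. With age Ace fell 6.25-fold in the ileum (-2.64 ± 0.47, edgeR adjusted p = 0.000198). The jejunal change was -1.06 ± 0.45 and did not pass (edgeR adjusted p = 0.06), although the ranges were apart. This change passed in 4 of the 14 other settings tried. It did so with only the 8 jejunal libraries fitted (edgeR adjusted p = 0.000123), with DESeq2 (DESeq2 adjusted p = 0.0337) and with sex as a covariate (edgeR adjusted p = 0.0413). It also passed without P36 ileum replicates 1 and 3 (edgeR adjusted p = 7.97e-05). Those 2 libraries are not in the jejunal comparison and bear on it only through the shared fit. They were left out after seeing their values, so this setting is no separate support. A widening of the regional difference with age of 1.59 on the log2 scale did not pass (-1.59 ± 0.63, edgeR adjusted p = 0.141) but did with mouse as a block (-2.03, edgeR adjusted p = 0.0263).

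Mep1a encodes the alpha subunit of meprin, a metalloendopeptidase that is largely secreted or held at the membrane by the beta subunit (chr17:43474329-43502773, minus strand, 2923 bases of exon). It was found at 826, 978, 884 and 902 CPM in P6 jejunum and at 2292, 2173, 2537 and 2161 in P6 ileum. By P36 the jejunal values were 245, 158, 230.1 and 261 CPM and the ileal ones 1979.6, 988, 636 and 1368. No pair of compared groups overlapped. The ileum was 2.55-fold higher at P6 (-1.35 ± 0.27, edgeR adjusted p = 0.00144) and 5.56-fold higher at P36 (-2.47 ± 0.28, edgeR adjusted p = 1.77e-05), in 4 of 4 mice at each age and in all 8 fits that left out a library of the groups compared. Mep1a fell 4.01-fold with age in the jejunum (log2 SE 0.27, edgeR adjusted p = 1.4e-05) and 1.84-fold in the ileum (-0.88 ± 0.26, edgeR adjusted p = 0.00977). With only the 8 ileal libraries fitted, the ileal fall did not pass (edgeR adjusted p = 0.057). The jejunal fall was larger by 1.12 ± 0.37, a difference that did not pass (edgeR adjusted p = 0.075).

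Mep1b encodes the membrane-bound beta subunit of meprin (chr18:21072344-21100199, plus strand, 2286 bases of exon). Replicates 1 to 4 had 647, 678, 583 and 587 CPM in P6 jejunum and 660.4, 454, 598 and 748 in P6 ileum. The P36 values were 1894, 1589, 1551 and 1738 CPM for jejunum and 1948, 958, 618 and 1296 for ileum. The regions overlapped at both ages, with differences of 0.02 ± 0.26 at P6 (edgeR adjusted p = 0.965) and 0.49 ± 0.26 at P36 (edgeR adjusted p = 0.239). Mep1b rose 2.72-fold with age in the jejunum (1.44 ± 0.27, edgeR adjusted p = 0.0003) and 1.96-fold in the ileum (0.97 ± 0.26, edgeR adjusted p = 0.00553). The 2 meprin subunits therefore had opposite signs with age in both regions, Mep1a falling and Mep1b rising, each past the test in the 16-library fit. As mean CPM per kilobase, Mep1a against Mep1b was 307 against 273 in P6 jejunum and 784 against 269 in P6 ileum. At P36 the pair stood at 76.5 against 741 in jejunum and 425 against 527 in ileum.

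Mme encodes neprilysin, a zinc endopeptidase that cuts short peptides before hydrophobic residues (chr3:63295435-63383713, plus strand, 6387 bases of exon). In the P6 ileum it was almost absent, with 3.95, 3.71, 3.85 and 2.65 CPM, while the P6 jejunum had 143, 182, 93.7 and 282. The P36 jejunum reached 1603, 1207, 903 and 1015 CPM. Values in the P36 ileum were 343, 93.4, 6.74 and 56.8 CPM, the widest spread of any tested member in any group (50.9-fold), yet all above the P6 ileum. The jejunum exceeded the ileum 49.4-fold at P6 (5.63 ± 0.84, edgeR adjusted p = 0.000149) and 9.45-fold at P36 (3.24 ± 0.74, edgeR adjusted p = 0.00672), in 4 of 4 mice at each age. Within single mice the log2 difference ran from 4.57 to 6.68 at P6 and from 2.22 to 7.05 at P36. Mme rose 6.75-fold in the jejunum (2.75 ± 0.72, edgeR adjusted p = 0.00471) and 35.3-fold in the ileum (5.14 ± 0.82, edgeR adjusted p = 7.2e-05), without overlap in either. Without P36 ileum replicate 1 the ileal rise was 3.89 on the log2 scale and still passed.

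Tmprss15 encodes enteropeptidase, the serine protease that activates trypsinogen and is made mainly in the duodenum (chr16:78953008-79091097, minus strand, 4182 bases of exon). It had 0 counts in the P6 jejunum, the P6 ileum and the P36 ileum, which allows at most 0.0352, 0.0365 and 0.0412 CPM over each group of 4 libraries (3 counts, counting error only). The P36 jejunum had 20, 2, 0 and 7 read pairs in replicates 1 to 4, 29 in all and 0.410 ± 0.536 CPM (SD, n = 4). The gene failed the filter on low counts and was not among the genes tested. In the fit without that filter, over 18959 genes, the P36 jejunum against the P6 jejunum had an edgeR adjusted p of 0.0343 and against the P36 ileum one of 0.103, and replicate 1 held 20 of the 29 read pairs. The trypsinogen genes Prss1, Prss2, Prss3, Try4, Try5 and Try10 had no count in any of the 16 libraries.

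In the P36 ileum the 8 tested peptidases ranked the libraries almost alike. Replicate 1 was highest and replicate 3 lowest for all 8, and replicate 4 exceeded replicate 2 for all but Mme. The summed levels were 9207, 4346, 1944 and 5269 CPM per kilobase in replicates 1 to 4, and the enterocyte markers summed to 18560.2, 8033, 5190.4 and 9123 CPM. The enterocyte markers were thus ordered as the peptidases were, and their part in the comparisons was not tested. In the P6 ileum the pattern differed by gene: replicate 4 was the lowest library for Naaladl1, Anpep, Ace, Mep1a and Mme and the highest for Enpep, Dpp4 and Mep1b. With P36 ileum replicates 1 and 3 left out, a choice made after seeing these values, 6 of the 8 peptidases passed the test of a regional difference that changes with age, against none with all libraries, and 7.50% of all genes passed in that fit: Anpep (0.95), Enpep (-1.53), Dpp4 (-1.24), Ace (-2.11), Mep1a (1.06) and Mme (1.67).

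**Figure D4:**
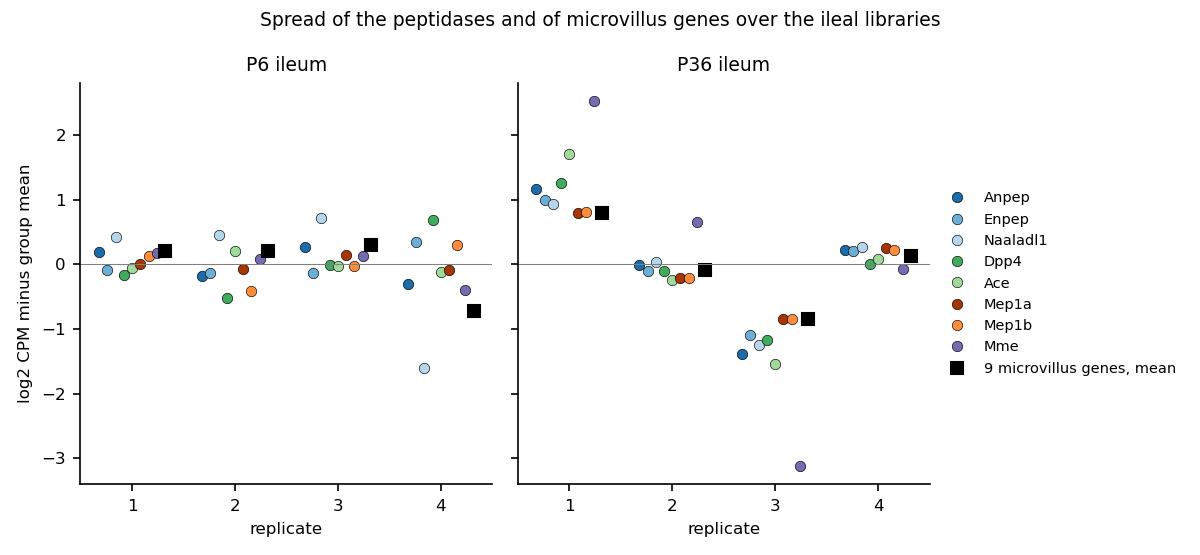
Points are log2 CPM of each peptidase minus its own group mean in the 4 P6 ileal (left) and 4 P36 ileal (right) libraries; black squares are the mean of 9 microvillus structure genes treated the same way. In the P36 ileum replicate 1 is high and replicate 3 low for every gene, with Mme moving farthest, and in the P6 ileum Naaladl1 falls in replicate 4.

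To set the peptidases against other genes of the same membrane, each was expressed relative to the mean log2 CPM of 9 microvillus structure genes (Vil1, Ezr, Espn, Eps8, Myo1a, Cdhr2, Cdhr5, Ush1c and Pls1) in the same library. That mean was itself 0.43 higher in the jejunum than in the ileum at each age and rose with age by 0.29 (jejunum) and 0.30 (ileum). With age 2 of its 9 genes passed upward (24.7% of all genes in the jejunum, 25.5% in the ileum) and 2 downward (26.9% and 30.1%) in each region. On this scale, with no test, Mep1b differed by -0.39 between the regions at P6 and by 0.18 at P36, with P36 ranges apart (0.908 ± 0.0642 against 0.725 ± 0.0866). The P6 direction depends on the reference: with Epcam and Cdh1 in place of the microvillus genes, Mep1b differed by 0.33 and Dpp4 by 0.34, against -0.38 for Dpp4 on the microvillus scale. The P36 ileal spread of Mep1a narrowed to an SD of 0.10 and that of Mep1b to 0.09, whereas Mme kept an SD of 1.71 and Ace of 0.67. In the P6 ileum the spread of both meprin genes widened instead, to SDs of 0.43 (Mep1a) and 0.72 (Mep1b). Their log2 CPM there ran from 11.08 to 11.31 and from 8.83 to 9.55. That of Naaladl1 narrowed to an SD of 0.60 in the P6 ileum, with log2 CPM from 9.65 to 11.98. Anpep kept a rise of 2.37 in the jejunum and 3.20 in the ileum, and Ace a fall of 1.37 and 3.40. The signs of 6 of 8 members at P6, 8 of 8 at P36, and 7 of 8 with age in each region were the same as for CPM, and the exceptions were Dpp4 and Mep1b at P6 and Naaladl1 with age. With Epcam and Cdh1 as the reference all 8 signs were those of CPM in all 4 comparisons. The CPM sign here is that of the difference between group means of log2 CPM. For Dpp4 between the P6 regions that difference was 0.05, where the edgeR value was -0.01.

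Other peptidases of the tissue gave the setting. Of 16 further cell surface peptidases 12 were tested, and 7 rose and 4 fell with age in the jejunum while 5 rose and 3 fell in the ileum (medians 0.66 and 0.16). Of all tested genes 24.7% rose and 26.9% fell in the jejunum, and 25.5% rose and 30.1% fell in the ileum. Dpep1, a dipeptidase of the same membrane, rose 7.09 ± 0.72 on the log2 scale in the jejunum and 6.78 ± 0.71 in the ileum, from 3.92 ± 0.76 to 535 ± 68.7 CPM and from 6.40 ± 6.24 to 701 ± 306 CPM. Ggt1, gamma-glutamyltransferase, rose 5.52 ± 0.53 and 5.85 ± 0.54. Both values were above those of the 8 tested brush border genes in either region. Xpnpep2, an aminopeptidase for bonds before proline, rose 2.90 ± 0.67 and 2.51 ± 0.66, and the serine protease Tmprss2 rose 2.55 ± 0.17 and 2.83 ± 0.18. Falling genes were Cpm, carboxypeptidase M (-2.28 ± 0.18 and -2.44 ± 0.18), Mmel1, a relative of neprilysin (-2.28 ± 0.63 and -4.98 ± 0.76), and the protease Prss8 (-2.20 ± 0.39 and -1.82 ± 0.39), each past the test in both regions. Mmel1 itself was low, at 3.23 ± 1.06 CPM or less in every group. Folh1, a relative of Naaladl1 on the list, had no count in any library. Between the regions 4 of the 12 passed at P6 (25.9% of all genes) and 1 of 12, Tmprss2 (0.75, edgeR adjusted p = 0.00497), at P36 (16.1%).

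The cytosolic peptidases finish the di- and tripeptides taken up. All 16 were tested, with 8 higher and 1 lower at P36 in the jejunum and 7 higher and 1 lower in the ileum (medians 0.49 and 0.55). The shares of all genes were 24.7% higher and 26.9% lower in the jejunum, and 25.5% higher and 30.1% lower in the ileum. Lap3, leucine aminopeptidase, rose 2.29 ± 0.28 in the jejunum and 0.95 ± 0.27 in the ileum, and it passed the test of that difference (-1.34 ± 0.38, edgeR adjusted p = 0.0397). Acy1, which removes acyl groups from amino acids, rose 1.84 ± 0.47 and 2.20 ± 0.48. Between the regions 7 of 16 passed at P6 (25.9% of all genes) and 6 of 16 at P36 (16.1%). Of the trypsin inhibitors, Spink4 rose 3.18 ± 0.24 in the jejunum and 3.17 ± 0.24 in the ileum, while Spink1 fell by 1.25 in the ileum (SE 0.26, edgeR adjusted p = 0.000623) and not in the jejunum (0.34, edgeR adjusted p = 0.284), with a difference between the regions that passed (-1.59 ± 0.36, edgeR adjusted p = 0.0109).

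**Figure D5:**
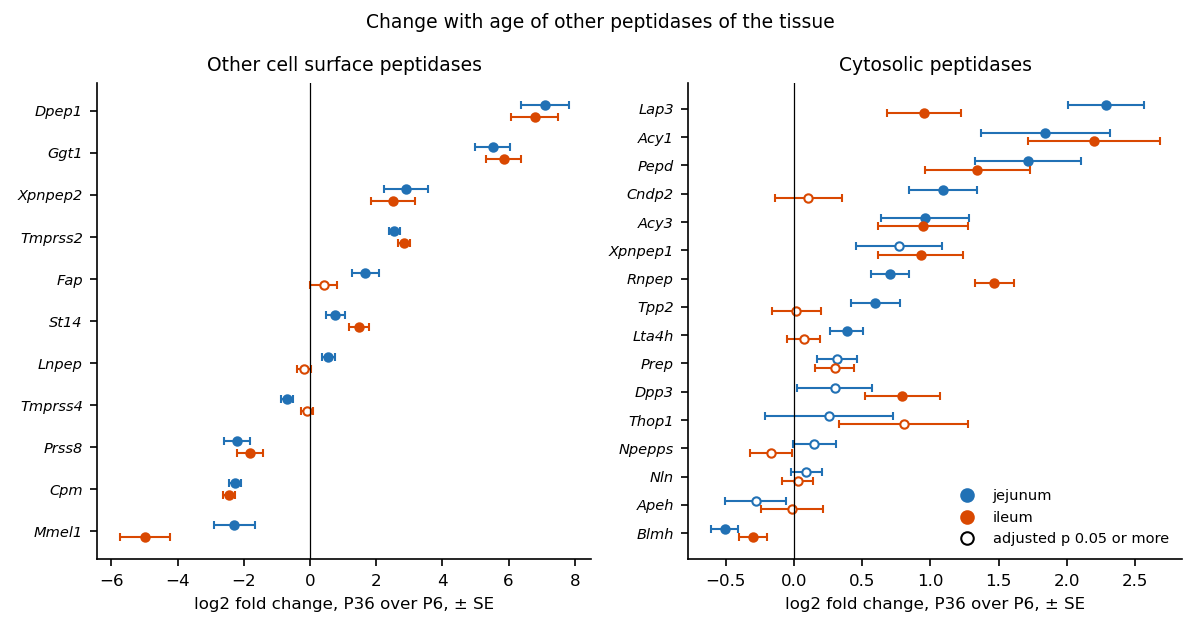
Points are log2 fold changes (P36 over P6) with SE from edgeR, for 11 of the 12 other cell surface peptidases tested on the left and 16 cytosolic peptidases on the right, in the jejunum and the ileum; open points had an adjusted p of 0.05 or more. Dpep1 and Ggt1 lie above 5 in both regions, Cpm, Prss8 and Mmel1 lie below -1, and the cytosolic genes stay between -0.6 and 2.3.

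Among 12 enterocyte transcription factors, Gata4 was 3.28 ± 0.83 higher in the jejunum at P6 on the log2 scale (edgeR adjusted p = 0.0084) and 4.17 ± 0.87 higher at P36 (edgeR adjusted p = 0.00372). Prdm1, the repressor known to hold back the adult programme in suckling gut, fell by 4.98 in the jejunum (SE 0.34) and by 5.72 in the ileum (SE 0.35), from 204 ± 19.1 to 6.44 ± 1.53 CPM and from 302 ± 60.4 to 5.76 ± 3.27 CPM. Hnf4g rose 2.37 ± 0.25 in the jejunum and 0.74 ± 0.24 in the ileum and passed the test of that difference (-1.62 ± 0.34, edgeR adjusted p = 0.00732). Hnf4a rose by 0.39 ± 0.13 in the ileum (edgeR adjusted p = 0.0158), and its jejunal change was -0.10 ± 0.13 (edgeR adjusted p = 0.529). Cdx2 passed in none of the 5 comparisons. In all, 2 of 12 rose (24.7% of all genes) and 3 fell (26.9%) in the jejunum, and 4 rose (25.5%) and 3 fell (30.1%) in the ileum.

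Likeness between genes was measured as the root mean square difference of mean-centred log2 CPM over the 16 libraries, which share depth and tissue. Among the members the closest pair was Dpp4 and Mep1b (0.39), then Enpep and Mep1b (0.46) and Enpep and Dpp4 (0.50), and the farthest was Mep1a and Mme (4.27). Outside the set the 2 nearest genes were Ces2a (0.41) and Clcn2 (0.47) for Anpep, Papss2 (0.30) and Myo9a (0.35) for Enpep, and Ccdc64 (0.43) and Slc41a3 (0.46) for Naaladl1. For the dipeptidyl peptidases they were Peak1 (0.29) and Dlg3 (0.33) for Dpp4 and Ms4a10 (0.35) and Ephx2 (0.46) for Ace. For the endopeptidases they were Slc36a4 (0.49) and Evi5l (0.52) for Mep1a, Slc35e2 (0.20) and Mtf1 (0.21) for Mep1b, and Slc2a5 (0.85) and Cda (1.00) for Mme. The values carry no p, and Mme, which spans 9.19 on the log2 scale, had no neighbour as near as those of the other members.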

How the data were processed

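RNA from 16 epithelial samples was sequenced on an Illumina NovaSeq 6000 from Kapa stranded mRNA libraries. Trimmomatic (v0.38) was used by the authors for trimming, STAR for alignment against mm10, and featureCounts (v1.6.3) for counting read pairs over the exons of each gene of the UCSC annotation on the reverse strand; the submitters' processing notes give STAR 2.5.3, and the paper gives another version. The deposited values are raw counts of 24421 genes per library. Genes were filtered with filterByExpr, scaled by TMM and tested with edgeR v4.0.16 (R v4.3.3) in 1 fit of 4 group means over all 16 libraries, as the study's methods state no block. A gene passed at an adjusted p below 0.05, and a log2 fold change above 2 in size was counted separately. SE is the fold change over the root of F; log2 CPM used a prior count of 2. Tests were checked on simulated counts.

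Replicates are different mice, and a replicate number marks the same mouse in both regions of an age. Deviations from group means correlated within mice across genes (r = 0.391, 0.383, 0.336 and 0.157 at P6, and 0.288, 0.337, 0.347 and 0.240 at P36), so mouse was tried as a block. The means between different mice (-0.106 and -0.101) are made negative by centring on the group means and are no separate result. Other alternatives were DESeq2 v1.42.0, limma v3.58.1, median-of-ratios factors, library totals, other filters, sex or the identifier of the P6 titles as a covariate, and omitted libraries.

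The members and lists were chosen with earlier results of these data known. Named genes were all members, set peptidases and factors, up to 4 peptidases per list past both thresholds, and the 2 nearest genes per member. Some genes and motifs of these lists count in the totals and are otherwise not reported here. No protein sequence was used. Promoter windows came from RefSeq.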

Additional observations from a re-analysis of the deposited data

Results flagged for a closer look

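Enpep in the P6 ileum had 1 library far from the others, with 1381 CPM in replicate 4 against 989 to 1028 CPM in the other 3. The gap to the nearest library was 0.899 of the group's range, above the Dixon limit for 4 samples. Of 33 combinations of gene and group checked this was the one past the limit, and chance alone passes about 5% of such groups. In the same library Dpp4 (524 CPM) and Mep1b (748 CPM) were also at their highest of the P6 ileum, Naaladl1 (806 CPM) was at its lowest, and the mean log2 CPM of 9 microvillus genes was 8.37 against 9.30 to 9.39. Whether these belong together was not tested. Without that library the P6 difference of Enpep between the regions remained past the test.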

How the results depend on the processing

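For each comparison the peptidases that passed, and those also past the fold minimum, were counted in each setting. Counts stayed within 1.5 times the reported ones in 133 of 144 pairs of a count and a setting that kept all groups complete or dropped a pair of libraries. The same held in 153 of 160 pairs of a count and 1 of the 16 fits that left out 1 library. The age by region count was 0 as reported (8.69% of all genes). It became 2 with DESeq2 (12.8%), 1 with library totals (10.2%) and 1 with sex as a covariate (8.38%). With mouse as a replicate block it was 2 under either form, 1 of them past the fold minimum (9.64% of all genes passed with fixed effects, 11.7% with an estimated correlation). Without P36 ileum replicates 1 and 3 it was 6 (7.50%), 1 of them past the fold minimum. The P6 regional count, 6 as reported, was 3 without P6 ileum replicates 2 and 4 (27.1% of all genes). The block also added Dpp4 to the P36 regional calls under either form (1.19, edgeR adjusted p = 0.0276, with fixed effects). With fixed effects it removed Naaladl1 from those calls (-1.19, edgeR adjusted p = 0.0532), and with an estimated correlation Naaladl1 was kept. The estimated correlation removed Enpep from the ileal age calls (limma adjusted p = 0.0614). The block changed no other call. The ileal age count fell from 7 to 4 (42.7% of all genes) when only its 8 libraries were fitted. Enpep (edgeR adjusted p = 0.103), Dpp4 (edgeR adjusted p = 0.0532) and Mep1a (edgeR adjusted p = 0.057) were then no longer past the test. The summed P6 jejunal level was 2340.1 CPM per kilobase with library totals. Leaving out 1 library moved the counts that passed to between 3 and 6 (P6 regions), 3 and 7 (P36 regions), 6 and 7 (jejunum by age), 5 and 7 (ileum by age) and 0 and 4 (age by region). In the same order, 19.0% to 32.6%, 10.3% to 28.7%, 45.9% to 62.6%, 51.0% to 62.0% and 6.10% to 14.0% of all genes passed in these fits. Past the fold minimum the counts of peptidases were 1, 3, 4 to 5, 3, and 0 to 1. Scaling by library totals shifted the median gene by -0.29 (P6 regions) and -0.14 (P36 regions). Sign changes were limited to 29 results, all of fold changes that did not pass. Dpp4 between the P6 regions (-0.01 as reported) was 0.0020 with DESeq2 and with median-of-ratios factors, 0.0225 without a filter, 0.0519 with mouse as a replicate block of fixed effects and 0.0497 with the block's correlation estimated, 0.0065 without P36 ileum replicates 1 and 3, 0.38 without P6 ileum replicates 3 and 4, 0.12 without replicates 2 and 4, and -0.16 to 0.28 with 1 library left out. Mep1b between the P6 regions was -0.27 with library totals, -0.0405 without P6 ileum replicates 2 and 4, and -0.10 to 0.13 with 1 library left out. Naaladl1 with age was -0.0878 in the ileum without P6 ileum replicates 3 and 4, -0.25 without replicates 2 and 4, -0.26 to 0.39 there with 1 library left out, -0.0103 to 0.33 in the jejunum, and -0.39 to 0.25 for the difference between them, which was 0.0030 with the identifier of the P6 titles as a covariate (-0.03 as reported). The cause was not tested for any of these. Groups had 4 mice, and the P36 ileum spread up to 50.9-fold. Calls near the threshold (Naaladl1 between regions, Enpep with age in the ileum) depend on single libraries. The P6 regional call of Ace was lost whichever P6 library was left out, while its log2 value stayed between 1.30 and 1.41. Its P36 regional call was kept in all 8 fits that left out a P36 library. The settings that dropped 2 libraries and the identifier as a covariate were chosen after seeing the data.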
